A study of Mus musculus with 8 samples.

Results

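The genes described here are 10 components of MHC class I antigen presentation, out of 54838 genes in the table. They were chosen by name, with earlier results of these data known. They are the class I heavy chains H2-K1 and H2-D1, their light chain B2m, the peptide transporter subunits Tap1 and Tap2, the loading factor Tapbp, the immunoproteasome subunits Psmb8, Psmb9 and Psmb10, and the transactivator Nlrc5. All 10 were in the table and 9 had enough counts to be tested. The exception was Nlrc5.

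RNA was measured by 3′ mRNA sequencing in AML cells of the RUNX1-RUNX1T1 genotype on a C57BL/6 background, in 4 Vehicle samples and 4 samples from mice given AG636. AG636 inhibits DHODH, an enzyme of de novo pyrimidine synthesis, and was given b.i.d. by gavage at 100 mg/kg. A figure legend of the study puts the treatment for this sequencing at 1 day, and that legend gives fewer mice for each group than the 4 samples analyzed here. Nothing in the labels says that each sample is a separate mouse, so the p-values measure the spread between these samples and rest on fewer animals if samples shared one. All mice were Ptprca recipients of an established transplanted leukemia, grown from cells of a diseased donor mouse, and they kept their own stromal and blood cells. The labels describe the recipients as sub-lethally irradiated, whereas the study's methods mention irradiation for its other models only. The labels also name bone marrow and spleen as sources without assigning samples to either. The cells were isolated by sorting and are described by the study as cKit high in its text and as cKit+ CD11b- in a figure legend. Neither the age of the mice nor the transgene's promoter is given in the labels.

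MHC class I molecules show short peptides on the cell surface to CD8+ T cells. Proteasomes, including an interferon-inducible form in which Psmb8, Psmb9 and Psmb10 replace the constitutive catalytic subunits, cut cytosolic proteins into peptides, which the Tap1-Tap2 transporter carries into the endoplasmic reticulum. There Tapbp (tapasin), with Calr, Canx and Pdia3, helps heavy chains paired with B2m to bind peptide, and interferons and NLRC5 act on the promoters of many of these genes.

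Libraries held 6120030 to 7162036 counts. Kit was abundant in all 8 samples (1022 to 1580 counts), whereas the primary granule genes Mpo (3 to 33 counts), Elane (2 to 30 counts) and Ctsg (1 to 24 counts) were near 0. Of the mature granulocyte markers, Itgam did not exceed 4 counts and Ly6g did not exceed 5. Others of that list were present, among them S100a8 (37 to 526 counts) and S100a9 (28 to 489 counts). Erythroid genes were strongly represented, with summed levels of 2052 to 5952 CPM (read counts scaled to a common library size with TMM factors). In a multidimensional scaling plot of the 500 most variable genes, Vehicle 4 and AG636 3 lay apart from the other samples of their groups on the second axis (24.9% of the variance), at 0.93 and -1.27. They also lay apart on the first axis (28.7%), where Vehicle 4 was at -0.08 and AG636 3 at -0.36. There the other Vehicle samples lay at -0.63 to -0.57 and the other AG636 samples at 0.42 to 1.07. AG636 3 was thus nearer to those Vehicle samples than Vehicle 4 was on that axis. The calls were repeated without Vehicle 4 and AG636 3.

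The promoters of these genes are shown because the pathway is known for shared regulatory elements upstream of its start sites. RefSeq windows from 250 bases before to 50 bases after the annotated start (GRCm38.p6) were found for 8 of the 10 genes, and 5 are printed: the heavy chains, B2m, and the genes other than B2m whose RNA passed the test, Tapbp and Psmb10. For H2-K1, which has 2 starts in the table, the first was taken. The windows lie at chr17:34000298-34000597 on the minus strand (H2-K1), chr17:35262844-35263143 on the plus strand (H2-D1), chr2:122147437-122147736 on the plus strand (B2m), chr17:33919228-33919527 on the plus strand (Tapbp) and chr8:105938343-105938642 on the minus strand (Psmb10). Capitals mark matches on either strand to an interferon regulatory factor (IRF) element (GAANNGAAA), a kB site (GGGATTCCC), a GAS element (TTCNNNGAA), an X2 box (TGACG) or a Y box (CCAAT).
H2-K1: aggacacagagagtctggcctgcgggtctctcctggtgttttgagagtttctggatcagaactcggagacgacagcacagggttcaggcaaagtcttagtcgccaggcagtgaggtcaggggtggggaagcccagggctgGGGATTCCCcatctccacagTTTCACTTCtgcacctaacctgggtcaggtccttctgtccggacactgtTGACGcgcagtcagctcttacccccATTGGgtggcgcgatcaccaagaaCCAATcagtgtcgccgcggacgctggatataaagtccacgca
H2-D1: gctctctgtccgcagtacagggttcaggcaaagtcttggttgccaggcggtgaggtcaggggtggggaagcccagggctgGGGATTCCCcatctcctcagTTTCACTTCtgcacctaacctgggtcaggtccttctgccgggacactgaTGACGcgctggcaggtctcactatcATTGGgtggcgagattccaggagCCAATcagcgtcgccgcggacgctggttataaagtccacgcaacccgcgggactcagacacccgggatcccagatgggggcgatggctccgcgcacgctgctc
B2m: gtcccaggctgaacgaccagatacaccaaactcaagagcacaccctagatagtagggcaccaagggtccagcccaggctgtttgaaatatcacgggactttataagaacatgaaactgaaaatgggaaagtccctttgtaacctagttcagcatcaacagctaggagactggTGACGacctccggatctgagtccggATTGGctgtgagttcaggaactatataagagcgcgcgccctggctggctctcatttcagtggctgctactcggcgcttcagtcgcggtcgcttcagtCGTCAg
Tapbp: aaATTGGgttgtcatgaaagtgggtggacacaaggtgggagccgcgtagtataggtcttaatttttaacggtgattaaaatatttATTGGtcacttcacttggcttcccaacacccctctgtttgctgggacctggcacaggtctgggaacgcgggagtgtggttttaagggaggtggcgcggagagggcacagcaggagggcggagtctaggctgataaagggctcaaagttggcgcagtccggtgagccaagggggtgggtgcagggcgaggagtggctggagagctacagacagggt
Psmb10: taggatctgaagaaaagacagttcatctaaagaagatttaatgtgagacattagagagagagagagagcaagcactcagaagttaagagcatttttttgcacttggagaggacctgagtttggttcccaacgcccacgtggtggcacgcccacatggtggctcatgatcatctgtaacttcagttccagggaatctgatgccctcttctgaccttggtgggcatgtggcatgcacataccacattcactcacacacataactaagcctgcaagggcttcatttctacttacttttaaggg

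H2-K1 and H2-D1 held the same series of matches at the same spacing from the kB site to the X2 box, namely a kB site, an IRF element, an X2 box and 2 Y boxes. Of 32851 mouse promoter windows of this length, 0.353% held the kB site and 7.52% the IRF element, against 20.8% for the X2 box, 37.4% for the Y box and 8.3% for the GAS element. B2m held 2 X2 boxes and 1 Y box, and Tapbp held 2 Y boxes. Only the exact letters were searched, so variant forms of an element are not marked. The B2m window contains gaaactgaaa and gggaaagtccc, which resemble an IRF element and a kB site without matching the letters used. No match to these letters was found in the Psmb10 window. Among the windows not printed, Psmb8 held 1 GAS match, and Tap1 and Psmb9, which lie head to head on opposite strands and whose windows share 275 bases, each held 1 Y box and 1 X2 box. These are the same sites, lying in the shared bases and read from opposite strands. No matches overlapped each other in the 5 printed windows, and a match is a description of the letters, not evidence that a factor was bound.

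Of the 9 tested genes, B2m and Tapbp rose and Psmb10 fell with AG636. B2m was 1.28-fold and Tapbp 1.31-fold higher, and Psmb10 fell to 0.748 of its Vehicle level. For the other 6 tested genes, H2-K1, H2-D1, Tap1, Tap2, Psmb8 and Psmb9, no difference passed the test, with log2 fold changes from -0.12 to 0.24. The test was limma-voom with p-values adjusted over all 10911 genes tested, of which 14.0% passed (5.47% higher and 8.49% lower in AG636). A count of 3 of 9 genes (2 higher and 1 lower) stands beside that background. The groups did not overlap in CPM for 4 of the 9, B2m, Tap1, Tapbp and Psmb10, against 22.2% of all tested genes. The median log2 fold change of the 9 was 0.15, and that of all tested genes was -0.01. With Vehicle 4 and AG636 3 both left out, Tapbp was the 1 gene of the 9 that passed, and 1545 of all 10952 genes tested passed. Fits that left out 1 sample called 688 to 1706 genes over all, against 1523 in the main fit. In these bulk samples, a lower level in each cell and fewer expressing cells cannot be told apart.

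**Figure D1:**
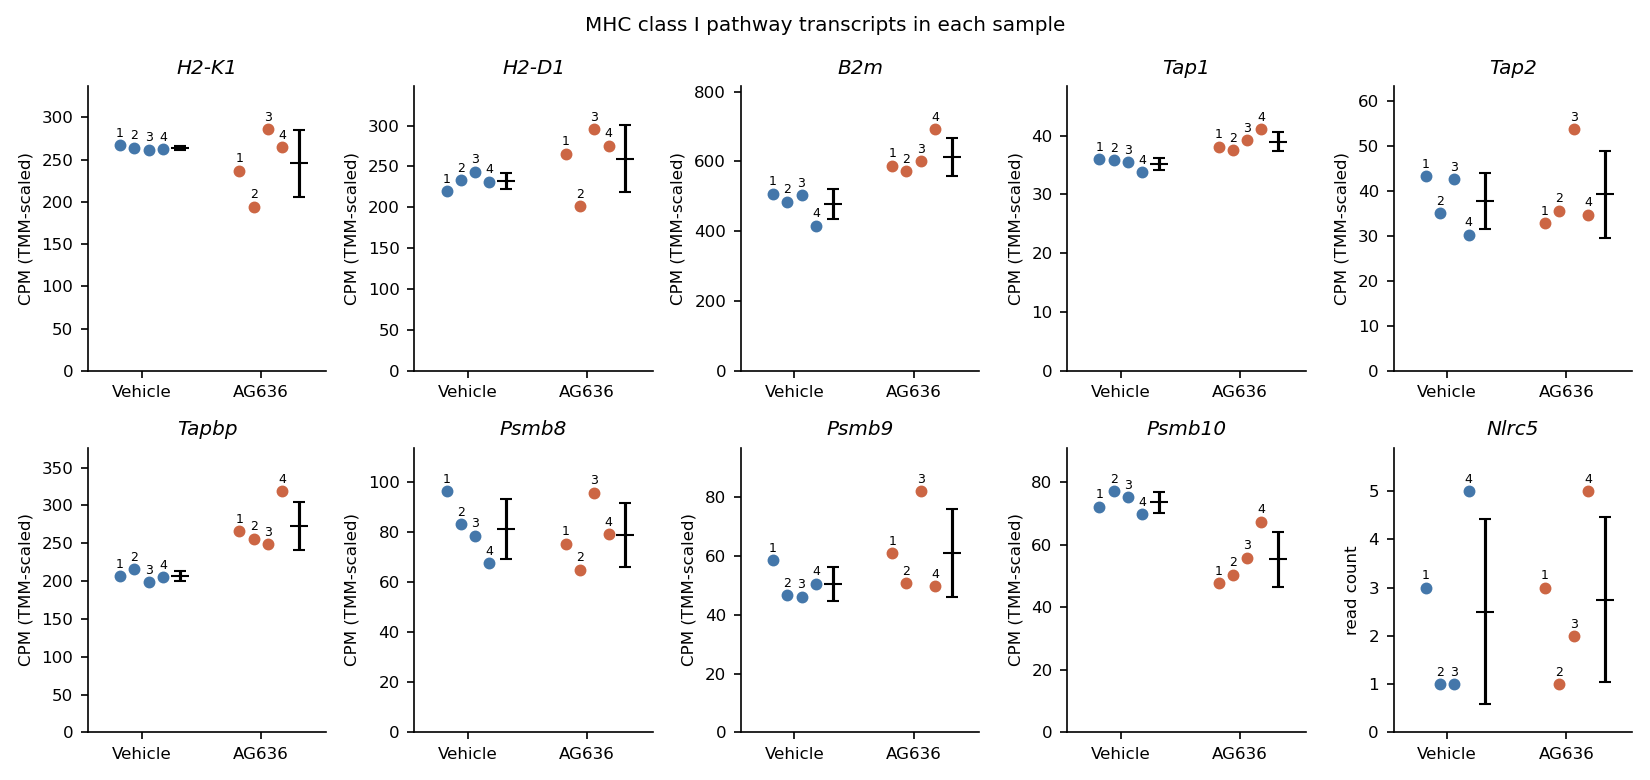
Level of each class I pathway gene in each sample (points, numbered by replicate), with the mean and SD of 4 samples at the right of each group. The vertical axes show CPM, and read counts for Nlrc5. The AG636 samples lie above all Vehicle samples for B2m, Tap1 and Tapbp and below them for Psmb10.

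Of the class I chains, B2m passed the test and the heavy chains H2-K1 and H2-D1 did not. H2-K1 (chromosome 17, 33996017 to 34000333, minus strand, GRCm38), a classical heavy chain, had 267, 264, 262 and 263 CPM in Vehicle samples 1 to 4 and 237, 194, 286 and 265 CPM in AG636 samples 1 to 4. The Vehicle values were nearly equal (264 ± 2.35, SD, n = 4), and the AG636 values lay on both sides of them (246 ± 39.5). The log2 fold change was -0.12 (95% interval -0.36 to 0.13, adjusted p = 0.513), and -0.20 without AG636 3 (adjusted p = 0.224).

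H2-D1 (chromosome 17, 35262730 to 35267499, plus strand), the other classical heavy chain of this strain background, had 220.0, 233, 244 and 232 CPM in the Vehicle samples and 266, 201, 295 and 276 CPM in the AG636 samples. AG636 2 was the lowest of all 8 samples and the other 3 AG636 samples were above every Vehicle sample. The log2 fold change was 0.15 (95% interval -0.10 to 0.40, adjusted p = 0.415), and 0.08 without AG636 3 (adjusted p = 0.671). Since the deposited counts do not say how reads shared among the near-identical class I genes were assigned, the sequence at the 3′ end was examined. None of 426 windows of 75 bases in the last 500 bases of the H2-K1 transcript, and likewise of the H2-D1 transcript, was found in a transcript of another gene (0 of 426 each). Only exact identity was searched, for the longest protein-coding transcript, so the assignment of trimmed reads or reads with mismatches is not settled by it. Summing all 18 classical and class Ib genes of the table into 1 feature gave a log2 fold change of 0.05 (95% interval -0.18 to 0.28, adjusted p = 0.797).

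B2m (chromosome 2, 122147686 to 122153083, plus strand), the light chain that every class I heavy chain needs for surface expression, had 508, 485, 503 and 416 CPM in Vehicle samples 1 to 4. It had 588, 572, 600.5 and 692 CPM in AG636 samples 1 to 4. Every AG636 sample was above every Vehicle sample, and the means were 478 ± 42.2 and 613 ± 53.7 CPM (SD, n = 4 each). B2m rose by 0.36 on the log2 scale (95% interval 0.15 to 0.57, adjusted p = 0.0307). The adjusted p-value rose above 0.05 when Vehicle 1 (0.0609), Vehicle 2 (0.0751), Vehicle 3 (0.0690), Vehicle 4 (0.0642) or AG636 1 (0.0530) was left out, with log2 fold changes of 0.31 to 0.39 over all 8 omissions. Without both Vehicle 4 and AG636 3, the values were 0.32 and 0.0566.

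The count ratio of the summed heavy chains to B2m was 0.959, 1.03, 1.005 and 1.19 in Vehicle samples 1 to 4 and 0.855, 0.692, 0.967 and 0.782 in AG636 samples 1 to 4. AG636 3 was the only AG636 sample within the Vehicle range. The mean ratio was 1.04 ± 0.0991 in Vehicle and 0.824 ± 0.116 in AG636, a log2 difference of -0.35 not past the threshold when all relabelings of the samples were enumerated (exact permutation p = 0.0571, adjusted p = 0.0762 for the 4 ratios, smallest possible p 0.0286). Without AG636 3 the log2 difference was -0.43 (exact permutation p = 0.0286). Because H2-K1 and H2-D1 had fold changes of opposite sign, their ratio was also formed, a choice made after their values were seen and therefore given without a test. The H2-K1 to H2-D1 count ratio was 1.21, 1.13, 1.07 and 1.13 in Vehicle samples 1 to 4 and 0.892, 0.966, 0.968 and 0.962 in AG636 samples 1 to 4. H2-K1 counts exceeded H2-D1 counts in all 4 Vehicle samples and were below them in all 4 AG636 samples, AG636 2, AG636 3 and Vehicle 4 included.

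**Figure D2:**
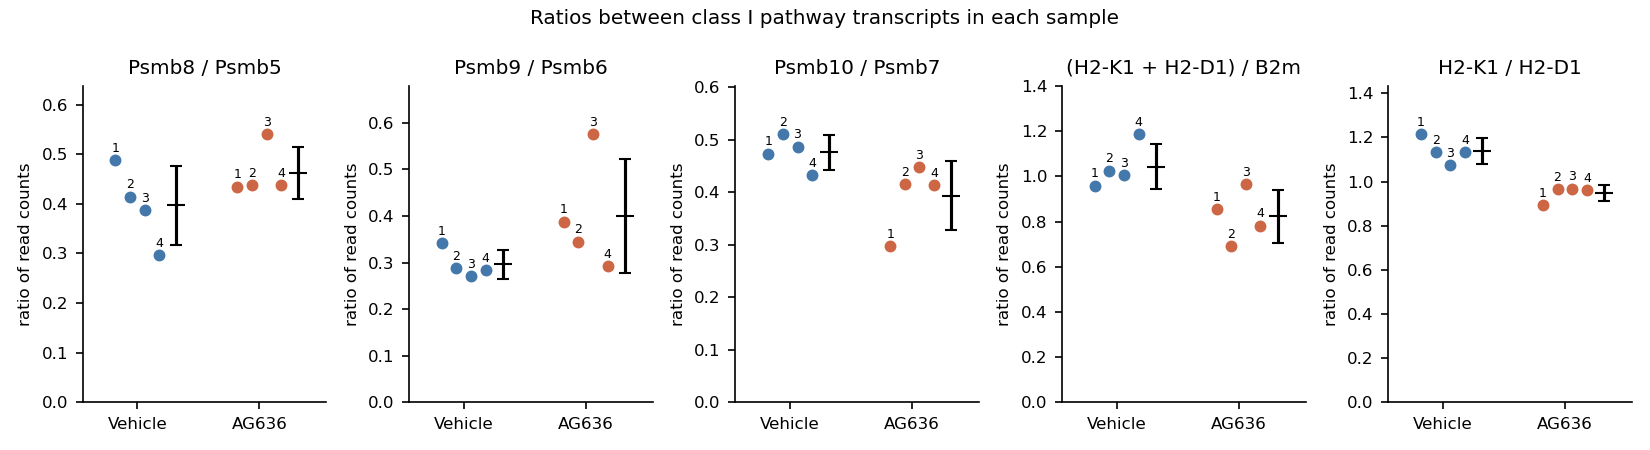
Ratios of read counts between pathway genes in each sample (points, numbered by replicate), with the mean and SD of 4 samples at the right of each group. The first 4 panels were tested and none passed (adjusted p of 0.0762 to 0.2). In the last panel, chosen after the values were seen, the groups do not overlap (0.892 to 0.968 in AG636, 1.07 to 1.21 in Vehicle).

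In the peptide-loading machinery, Tapbp rose and the transporter genes did not pass the test. Tapbp (chromosome 17, 33915899 to 33929292, plus strand) encodes tapasin, which bridges the transporter and empty class I molecules. Its levels were 207, 216, 199 and 206 CPM in Vehicle samples 1 to 4 and 266, 256, 249 and 319 CPM in AG636 samples 1 to 4. The groups did not overlap, and AG636 4 was highest, as it was for B2m. The means were 207 ± 7.02 and 273 ± 31.9 CPM (SD, n = 4 each), and the log2 fold change was 0.39 (95% interval 0.19 to 0.59, adjusted p = 0.0183). The result passed in 6 of 8 fits that left out 1 sample. The exceptions were the fits without Vehicle 1 (0.39, adjusted p = 0.0578) and without Vehicle 3 (0.37, adjusted p = 0.0690), and without both Vehicle 4 and AG636 3 the log2 fold change was 0.45 (adjusted p = 0.0217). Tapbp shares 149 exonic bases with Zbtb22 on the same strand. Zbtb22 had 17.5% as many counts as Tapbp, and its log2 fold change was -0.01 (adjusted p = 0.957).

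Tap1 (chromosome 17, 34187553 to 34197225, plus strand) and Tap2 (chromosome 17, 34203527 to 34216321, plus strand) encode the subunits of the peptide transporter. Tap1 had 36.0, 35.8, 35.4 and 33.8 CPM in Vehicle and 38.1, 37.5, 39.3 and 41.1 CPM in AG636 samples 1 to 4. The groups did not overlap, but the difference was small (log2 fold change 0.15, 95% interval -0.05 to 0.34, adjusted p = 0.293). Tap2 had 43.3, 35.0, 42.6 and 30.3 CPM in Vehicle and 32.8, 35.6, 53.6 and 34.7 CPM in AG636 samples 1 to 4. The 2 groups overlapped, AG636 3 was far above the other AG636 samples, and the log2 fold change of 0.03 (95% interval -0.34 to 0.41, adjusted p = 0.916) became -0.13 without AG636 3 and -0.05 without Vehicle 4. Tap1 overlaps Psmb9 by 212 exonic bases on the opposite strand, and it is not stated whether the counting used strand.

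Among the immunoproteasome subunits, Psmb10 fell while Psmb8 and Psmb9 did not pass the test. Psmb10 (chromosome 8, 105935735 to 105938444, minus strand) encodes β2i, the only 1 of the 3 subunits that is not in the MHC region. It had 72.1, 77.2, 75.2 and 69.7 CPM in Vehicle samples 1 to 4 and 47.6, 50.4, 55.9 and 67.4 CPM in AG636 samples 1 to 4. All AG636 samples were lower than all Vehicle samples, with AG636 4 close to the lowest Vehicle sample. The means were 73.5 ± 3.30 and 55.3 ± 8.73 CPM (SD, n = 4 each). Psmb10 fell by 0.42 on the log2 scale (95% interval -0.67 to -0.17, adjusted p = 0.0323). The call was lost without Vehicle 1 (adjusted p = 0.0747), Vehicle 2 (0.0858), Vehicle 3 (0.0906), Vehicle 4 (0.0581), AG636 1 (0.0813) or AG636 2 (0.0664), with log2 fold changes of -0.51 to -0.35 over all 8 omissions. Leaving out Vehicle 4 and AG636 3 together gave -0.43 (adjusted p = 0.0591).

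Psmb8 (chromosome 17, 34197721 to 34201454, plus strand), which encodes β5i, had 96.3, 83.0, 78.5 and 67.4 CPM in Vehicle and 75.3, 65.0, 95.6 and 79.1 CPM in AG636 samples 1 to 4. The groups overlapped almost completely (log2 fold change -0.05, 95% interval -0.35 to 0.25, adjusted p = 0.843), and the sign turned to 0.034 without Vehicle 1 and 0.036 without AG636 2, while it was -0.15 without AG636 3. Psmb9 (chromosome 17, 34181988 to 34187764, minus strand), which encodes β1i, had 58.4, 46.6, 46.1 and 50.5 CPM in Vehicle and 60.8, 50.8, 82.0 and 49.7 CPM in AG636 samples 1 to 4. AG636 3 stood highest and the other 3 lay in or near the Vehicle range. The log2 fold change was 0.24 (95% interval -0.10 to 0.59, adjusted p = 0.325) and 0.09 without AG636 3.

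Each inducible subunit was also set against the constitutive subunit whose place it takes in the proteasome. The Psmb10 to Psmb7 count ratio was 0.473, 0.510, 0.486 and 0.432 in Vehicle and 0.298, 0.416, 0.448 and 0.413 in AG636 samples 1 to 4 (log2 difference -0.29, exact permutation p = 0.0571, adjusted p = 0.0762). The Psmb9 to Psmb6 ratio was 0.342, 0.289, 0.271 and 0.284 in Vehicle and 0.388, 0.345, 0.576 and 0.293 in AG636 (log2 difference 0.39, exact permutation p = 0.0571, adjusted p = 0.0762). The Psmb8 to Psmb5 ratio was 0.489, 0.414, 0.388 and 0.297 in Vehicle and 0.434, 0.438, 0.540 and 0.437 in AG636 (log2 difference 0.24, exact permutation p = 0.2, adjusted p = 0.2). The groups overlapped in all 3 ratios, and no difference passed. Single samples moved the unadjusted exact permutation p to 0.0286, the smallest possible for 3 against 4 samples: AG636 3 for Psmb10 to Psmb7 (-0.36 without it), AG636 4 for Psmb9 to Psmb6 (0.53 without it) and Vehicle 1 for Psmb8 to Psmb5 (0.34 without it). Other omissions brought the differences nearer to 0, to -0.16 for Psmb10 to Psmb7 without AG636 1, 0.20 for Psmb9 to Psmb6 without AG636 3 and 0.11 for Psmb8 to Psmb5 without Vehicle 4.

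Nlrc5 (chromosome 8, 94434356 to 94527272, plus strand), the transactivator of class I genes, was near the limit of detection. Vehicle samples 1 to 4 had 3, 1, 1 and 5 counts and AG636 samples 1 to 4 had 3, 1, 2 and 5 counts. The sums were 10 counts in Vehicle (95% exact Poisson interval 4.80 to 18.4) and 11 in AG636 (5.49 to 19.7), intervals that cover counting error only, so that no difference was detectable at this depth. The antisense gene 9330175E14Rik, which shares 78 exonic bases with Nlrc5, had 8 counts in all 8 samples together.

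Read counts from a 3′ kit depend little on transcript length, so levels in CPM can be set beside each other between genes. In Vehicle samples the order was B2m (478), H2-K1 (264), H2-D1 (232), Tapbp (207), Psmb8 (81.3), Psmb10 (73.5), Psmb9 (50.4), Tap2 (37.8) and Tap1 (35.3). Neighbors overlapped between samples in 2 places, Psmb8 with Psmb10 and Tap2 with Tap1. In AG636 samples B2m was again first and apart from the rest, followed by Tapbp, H2-D1 and H2-K1, and those 3 overlapped each other in level. Psmb9 came before Psmb10 in AG636, with overlapping values.

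The members did not all peak in the same sample. Vehicle 1 was the highest Vehicle sample for 6 of the 9 tested genes and Vehicle 4 the lowest for 5. AG636 3 was the highest AG636 sample for 5 genes and AG636 4 for the other 4, whereas AG636 2 was the lowest for 5. The coefficient of variation was larger in AG636 than in Vehicle for 8 of the 9 members, as it was for 71% of all tested genes. It went from 0.891% in Vehicle to 16.1% in AG636 for H2-K1, and B2m was the exception (8.84% and 8.76%). By root mean square distance of standardized log2 CPM over the 8 samples, H2-D1 was the member nearest to the mean profile of the 9 (0.554) and Psmb10 the farthest (1.36). The 5 other genes nearest to that mean profile were Cap1 (distance 0.151), Serpinb1a (0.234), Plek (0.244), Mitf (0.246) and Lgals3 (0.248), each highest in AG636 3 and none past the test. Cap1, for example, had 72.3, 65.6, 69.2 and 60.6 CPM in Vehicle and 73.6, 60.5, 99.6 and 89.2 CPM in AG636 samples 1 to 4.

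**Figure D3:**
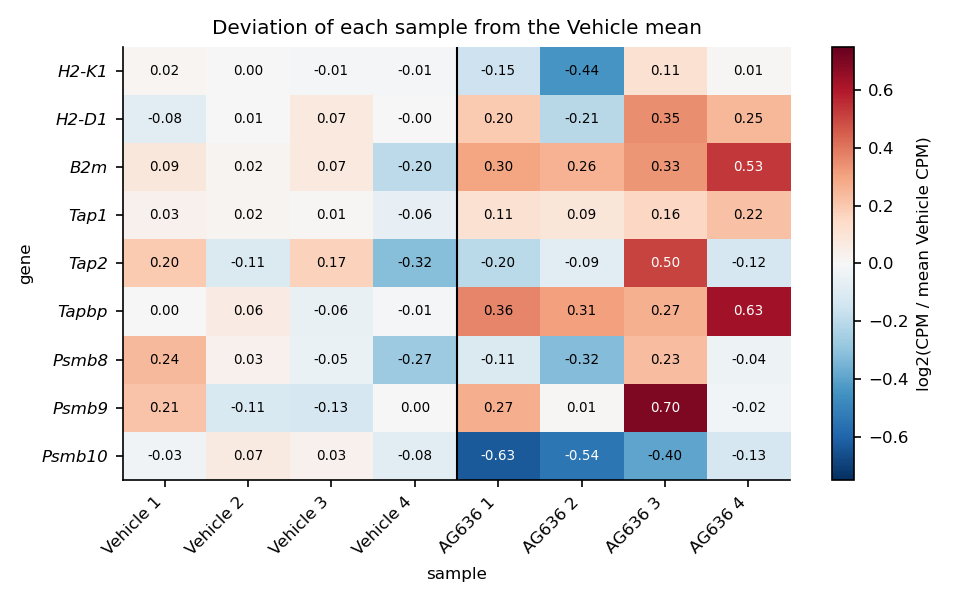
Difference of each sample from the Vehicle mean, as log2 of the ratio of CPM, for the 9 tested genes (rows) in the 8 samples (columns), with the value in each cell, red above and blue below the Vehicle mean. B2m, Tap1 and Tapbp are above 0 and Psmb10 is below 0 in all 4 AG636 samples, and AG636 3 has the largest values of Tap2 (0.50) and Psmb9 (0.70).

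Calr, Canx and Pdia3, which work with Tapbp in the peptide-loading complex, fell. Of 8 loading partners, the 3 that passed in limma-voom were all lower in AG636, against 8.49% of all tested genes called lower. For the same list edgeR called 2 genes and DESeq2 called 3. The list's median log2 fold change was -0.23. Calr, a lectin chaperone of the endoplasmic reticulum, had 579, 575, 577 and 564 CPM in Vehicle and 274, 269, 432 and 532 CPM in AG636 samples 1 to 4 (log2 fold change -0.67, adjusted p = 0.0435). Canx, the membrane-bound lectin chaperone, fell from 471 ± 15.7 to 361 ± 21.2 CPM (-0.38, adjusted p = 0.00970). Pdia3, the disulfide isomerase of the complex, fell from 243 ± 19.1 to 176 ± 19.0 CPM (-0.47, adjusted p = 0.0118). No sample of 1 group entered the range of the other for these 3 genes, and the same held for 22.2% of all tested genes. Without Vehicle 4 and AG636 3, Canx and Pdia3 passed and Calr did not (-0.74, adjusted p = 0.0523).

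Fold changes of the constitutive proteasome core genes were negative throughout. The 3 constitutive catalytic subunits were all negative and none passed in limma-voom (1 at an unadjusted p under 0.05, 0 in edgeR, 1 in DESeq2), with Psmb5 closest to the threshold (log2 fold change -0.29, adjusted p = 0.0560), followed by Psmb6 (-0.14, adjusted p = 0.258). All 11 other subunits of the 20S core had negative fold changes, with a median of -0.18. Against 8.49% of all tested genes called lower, 2 of the 11 passed, Psma7 (-0.46, adjusted p = 0.0160) and Psma4 (-0.33, adjusted p = 0.0280). Of these, Psma7 passed without Vehicle 4 and AG636 3 and Psma4 did not (-0.33, adjusted p = 0.0555).

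Of 10 proteasome activator and assembly genes, 4 fell, 1 rose and 5 did not pass, with a median of -0.25. Over all tested genes 8.49% were called lower and 5.47% higher. The proteasome activator PA28 has an interferon-inducible form made of Psme1 and Psme2, and these 2 genes differed. Psme2 had 31.3, 26.6, 28.0 and 24.2 CPM in Vehicle and 20.2, 13.2, 18.4 and 15.8 CPM in AG636 samples 1 to 4 (log2 fold change -0.72, adjusted p = 0.0123). Psme1 measured 223 ± 18.1 and 230.3 ± 13.9 CPM (0.05, adjusted p = 0.752). The difference between the pair was not tested. The nuclear activator Psme3 fell (-0.53, adjusted p = 0.0153), as did the assembly chaperones Psmg1 (-0.70, adjusted p = 0.0105) and Psmg3 (-0.42, adjusted p = 0.0104), while the activator Psme4 rose (0.33, adjusted p = 0.0408). Without Vehicle 4 and AG636 3, Psme3 no longer passed (-0.41, adjusted p = 0.0560) and the other 4 did.

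**Figure D4:**
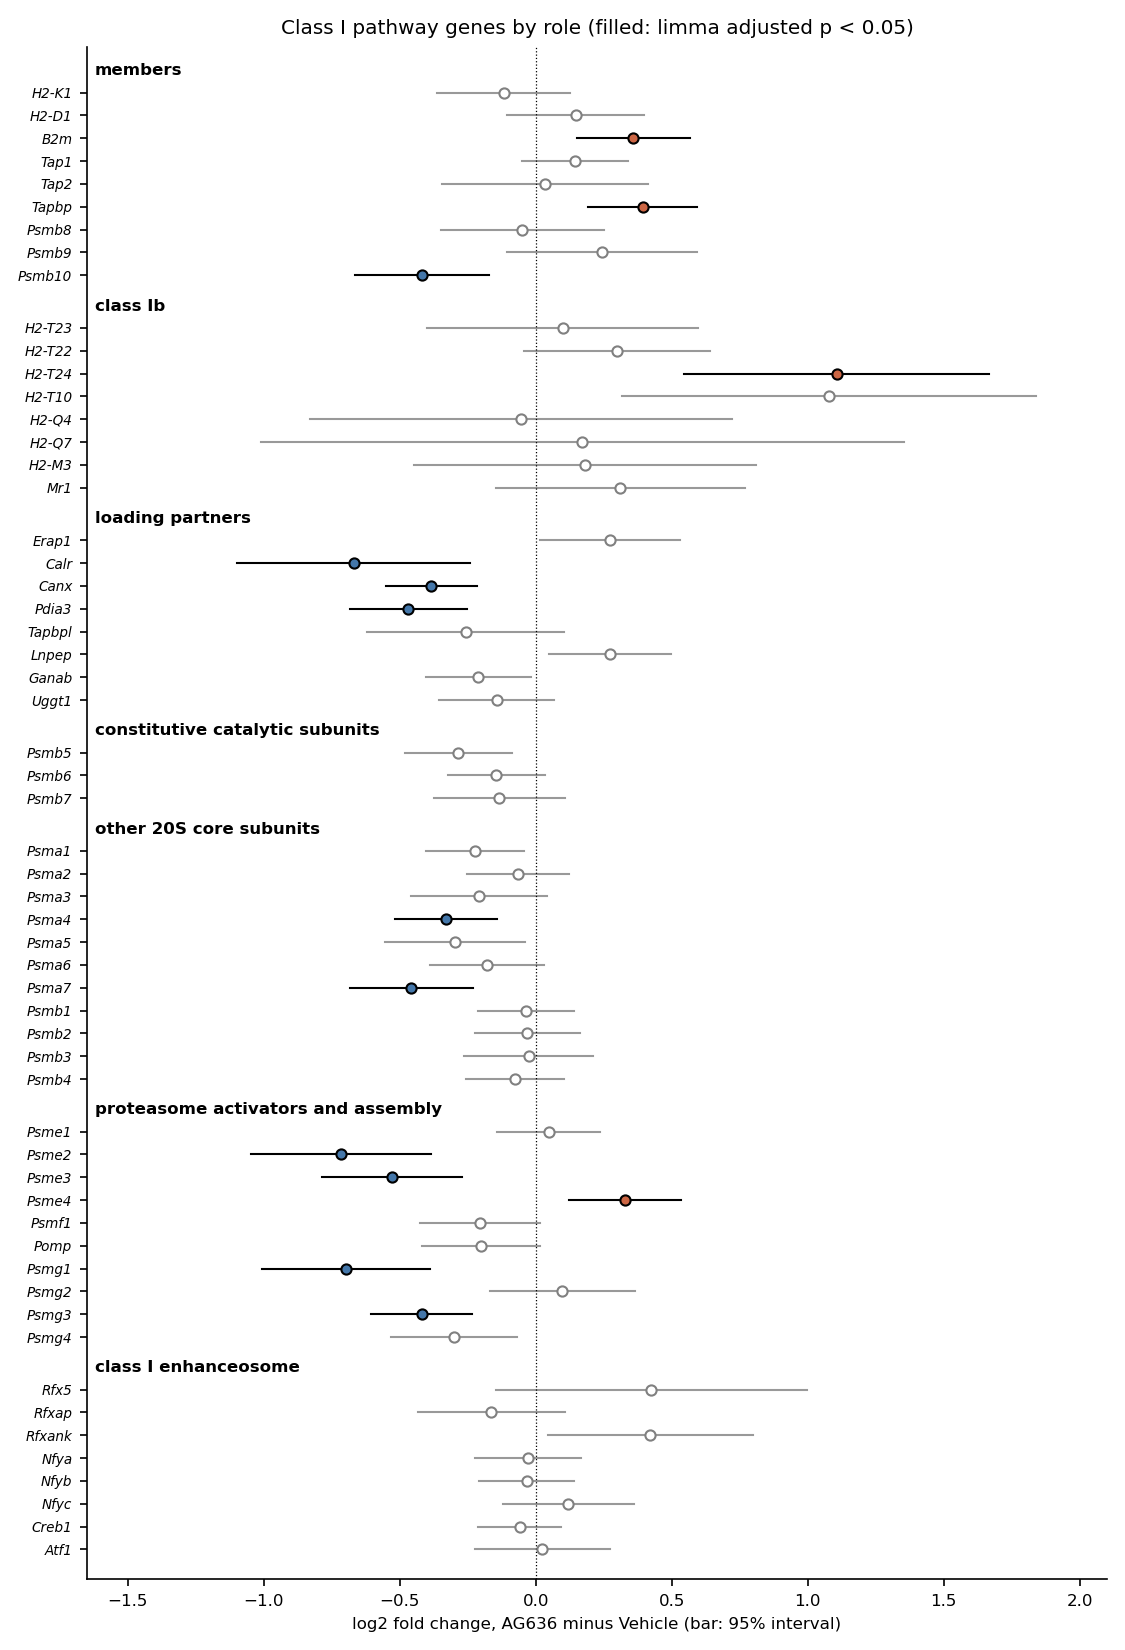
Log2 fold change (AG636 minus Vehicle) with its 95% interval for the tested members and 6 lists of related genes, grouped by role. Filled points passed an adjusted p-value of 0.05 in limma-voom, red higher and blue lower. All 3 loading partners that passed and the 2 core subunits that passed lie left of 0, and Tapbp and B2m lie right of it.

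The class Ib list, non-classical chains that also pair with B2m, had 18 names, of which 16 were in the table, 3 were at 0 counts in every sample and 8 were tested. H2-T24 was the 1 gene that passed, against 5.47% of all tested genes called higher. It had 5.97, 4.76, 4.33 and 3.65 CPM in Vehicle and 8.24, 14.8, 8.62 and 9.68 CPM in AG636 samples 1 to 4 (log2 fold change 1.11, adjusted p = 0.0178), without overlap, and passed without Vehicle 4 and AG636 3 as well (1.09, adjusted p = 0.0339). The list's median was 0.24, and 7 of 8 values were positive.

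Few genes for factors that act on class I promoters passed the test in limma-voom. In the list of RFX, NF-Y and CREB/ATF genes none of 8 passed in limma-voom (1 at an unadjusted p under 0.05, 0 in edgeR, 0 in DESeq2) and the median was -0.002. The smallest p-values belonged to the RFX complex genes Rfxank (0.42, adjusted p = 0.124) and Rfx5 (0.42, adjusted p = 0.297). Of 20 interferon and NF-kB signaling genes, 18 were tested, and Ifnb1 and Ifng had 0 counts in all samples. Irf2, an interferon regulatory factor, was the 1 that passed in limma-voom and rose from 75.5 ± 4.99 to 117 ± 14.7 CPM (0.62, adjusted p = 0.00481). Of this list, 5 genes had an unadjusted p under 0.05 in limma-voom, and edgeR and DESeq2 each called 3. Over all genes edgeR called 1612 of 10911 and DESeq2 1896 of 23416. The list's median was 0.14, and 5.47% of all tested genes were called higher. Without Vehicle 4 and AG636 3, more genes of this list passed, among them Irf2 (0.65), Irf7 (2.65) and Irf8 (1.45), which were higher, and Nfkb1 (-0.51), which was lower, with adjusted p-values of 0.0110, 0.00859, 0.0369 and 0.0264.

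Genes of other cell types moved in some of the same samples. Class II genes, which antigen-presenting cells express, summed to 26.7 to 42.6 CPM in Vehicle and 50.1 to 102 CPM in AG636. All 6 tested class II genes were positive and H2-Eb1 passed (1.32, adjusted p = 0.0467), against 5.47% of all tested genes called higher. Without Vehicle 4 and AG636 3, 3 class II genes passed, all higher, H2-Aa (1.56, adjusted p = 0.00827), H2-Eb1 (1.71, adjusted p = 0.0329) and Cd74 (1.79, adjusted p = 0.0279). AG636 4, the sample with the highest B2m and Tapbp, also had the highest class II sum. B cell markers summed to 14.0 to 34.7 CPM in Vehicle and 21.9 to 105 CPM in AG636, with 1 of 5 tested called, Cd79a (1.83, adjusted p = 0.0266, 2 to 22 counts). Without those 2 libraries more B cell markers passed, among them Cd79a (2.27), Ms4a1 (1.28) and Ighm (1.97), all higher, with adjusted p-values of 0.0183, 0.0492 and 0.0438. In that fit Nkg7 of the T and NK cell list (-1.63, adjusted p = 0.0114) and the immature marker Cd34 (-1.19, adjusted p = 0.0127) were lower. Both were highest in the omitted AG636 3 (111 and 223 counts). Most other T and NK cell genes had more summed counts in AG636 than in Vehicle, such as Cd3e (21 and 6) and Trac (29 and 12). The natural killer cell genes Klrb1c and Ncr1 had at most 1 count in any sample. Macrophage and monocyte markers summed to 3.84 to 7.61 and 5.43 to 14.5 CPM (0 of 2 tested called), T and NK cell markers to 3.65 to 9.62 and 4.79 to 19.9 CPM (0 of 1), dendritic cell markers to 0.456 to 0.728 and 0.933 to 1.45 CPM (none tested), and granulocyte markers to 43.5 to 103 and 13.8 to 201 CPM (0 of 5). In those 3 tested lists edgeR and DESeq2 also called 0 genes, and 1 gene, a macrophage and monocyte marker, had an unadjusted p under 0.05 in limma-voom. No marker was at 0 in all samples. Without AG636 4, B2m (0.32, adjusted p = 0.0444), Tapbp (0.33, adjusted p = 0.0202) and Psmb10 (-0.51, adjusted p = 0.00875) all passed. That fit kept AG636 1, which had the highest B cell sum. The class II sums of AG636 1 to 3 (50.1 to 62.3 CPM) were above those of all Vehicle samples. The part of other cells in the class I values was not tested.

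**Figure D5:**
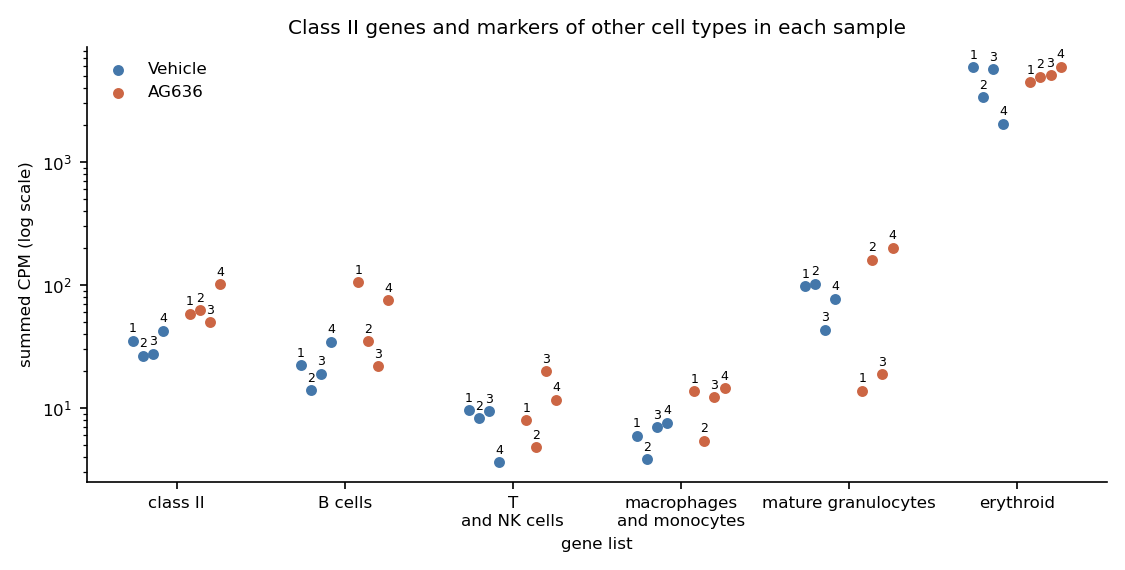
Summed level of class II genes and of marker lists of other cell types in each sample (points, numbered by replicate), in CPM on a log axis. The class II sums of the AG636 samples (50.1 to 102 CPM) lie above those of the Vehicle samples (26.7 to 42.6 CPM), and AG636 4 is highest.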

How the data were processed

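The deposited table holds unnormalized read counts for each gene. The authors sequenced QuantSeq 3′ mRNA libraries with single-end reads, discarded reads of low base quality, trimmed primer and poly-A bases with cutadapt, aligned to GRCm38 (mm10) with HISAT2 and counted reads per gene with featureCounts of Subread. The strand setting and the treatment of reads with several alignments are not given in the sources used here. Start and end were identical in GENCODE M21 for 54037 of the 54723 genes in both. Symbols came from a name table that left 115 genes without one, and H2-Q8 and H2-Q9 were not matched.

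Samples were grouped by title. No pair of replicates agreed within sampling noise in a chi-square test. Genes were kept by filterByExpr (minimum count 10), scaled by TMM and compared by limma-voom in 1 fit of 8 samples with group as the only term (R 4.3.3, limma 3.58.1, edgeR 4.0.16, DESeq2 1.42.0), as the study used limma. Tests were two-sided, with Benjamini-Hochberg adjustment over all genes tested and a threshold of 0.05. CPM were computed here from the TMM-scaled library sizes. Ratios were compared on the log2 scale (0.5 added to each count) by an exact permutation test over 70 relabelings. The fit was tested on simulated counts. Depth limits the precision of genes with few counts, such as Nlrc5.

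The members and lists were chosen with earlier results of these data known. The genes named were all members, in each other list at most the 4 genes past the threshold with the smallest p-values (the 2 smallest where none passed), the 5 genes nearest to the members' mean profile, and overlapping neighbors with at least 10% of a member's counts. 1 more gene past the threshold, Psme4, the comparison gene Psme1, markers, and genes named in the fits without 2 libraries were added after their values were seen. Some values are left out of the text. Alternatives were other tools, scalings, filters and thresholds, a replicate block, and omission of samples.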

Additional observations from a re-analysis of the deposited data

Results flagged for a closer look

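AG636 3 stood apart from the other samples of its group in 2 values by Dixon's criterion for 4 samples. For Tap2 its log2(CPM + 0.5) was 5.76, against 5.06 to 5.17 in the other AG636 samples. For the log2 ratio of Psmb8 to Psmb5 it was -0.89, against -1.20 to -1.19. In all 26 combinations of a gene or ratio with a group were examined, of which chance gives 1.3 beyond the criterion. AG636 3 is also 1 of the 2 libraries that lay apart over all genes.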

How the results depend on the processing

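Over 22 alternatives the signs of B2m, Tapbp, Psmb10, Tap1 and Psmb9 did not change, nor did those of H2-K1 and H2-D1 over the 21 that left them as separate genes. B2m ranged from 0.31 to 0.43 on the log2 scale (adjusted p from 0.00428 to 0.0751), Tapbp from 0.33 to 0.46 (0.00172 to 0.0690) and Psmb10 from -0.51 to -0.35 (0.00875 to 0.0906). The number of members called was 3 in the main fit and 3 with edgeR, DESeq2, limma-trend, quality weights, RLE and upper-quartile factors. It was 2 with library size alone or no filter, where Psmb10 was lost, and 0 to 3 with 1 sample left out. The fits with 0 calls, without Vehicle 1 and without Vehicle 3, had 3 members at an unadjusted p under 0.05. Calls over all genes also dropped in these fits, from 1523 in the main fit to 798 and 688. The number of members called was 1 (Tapbp) with Vehicle 4 and AG636 3 left out together. At an adjusted p under 0.01 limma-voom called 0, since the smallest adjusted p of a member was 0.0183.

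The sign reversed for Tap2 with quality weights (-0.055), without Vehicle 4 (-0.050), without AG636 3 (-0.13) and without both (-0.20), and for Psmb8 with library size alone (0.020), without Vehicle 1 (0.034) and without AG636 2 (0.036). With 1 sample left out, Psmb8 ranged from -0.15 to 0.036 and Tap2 from -0.13 to 0.11. The cause was not tested. With 1 sample left out, the log2 ratio differences ranged from 0.11 to 0.34 for Psmb8 to Psmb5, 0.20 to 0.53 for Psmb9 to Psmb6, -0.36 to -0.16 for Psmb10 to Psmb7 and -0.43 to -0.27 for heavy chains to B2m. The smallest p possible, 0.0286, was reached without Vehicle 1, AG636 4, AG636 3 and AG636 3, respectively.

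With the replicate number as a block, 1 member was called (Tapbp), with adjusted p-values of 0.0627 for B2m and 0.0521 for Psmb10. Deviations of same-numbered samples correlated at -0.14, 0.01, 0.20 and 0.14, so the numbers were not taken to pair samples. Upper-quartile factors and the joint omission were chosen after seeing the data.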
